A study of Mus musculus with 550 samples.

Results

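Single-cell transcriptomes of embryoid bodies (EBs) were examined for 8 genes tied to the primed state of the epiblast: Fgf5, Trh, Pim2, Otx2, Pou3f1, Vrtn, Car14 and Bag2, out of 55228 gene names in the count table. The genes were chosen by their read counts in these same cells, chiefly how the levels at day 9 differed between the genotypes, so the day 9 levels below describe that choice and were not tested. EBs were made from E14 mouse embryonic stem cells (ESCs; strain 129/Ola) of 3 genotypes: WT, the unaltered line; 3AKO, homozygous for a knockout of Dnmt3a; and 3BKO, homozygous for a knockout of Dnmt3b. All 3 genotypes were grown in serum with LIF, the cytokine that holds ESCs in self-renewal, and were then moved to low-attachment plates in a medium without it. Individual cells were sorted at day 3 and day 9 and profiled with a modified Smart-seq2 protocol, in 2 library batches. Per the methods, a mutant had more than 1 clone and the EBs of a clone were pooled. Since no label gives the clone of a cell, the data make up 6 samples, 1 for each genotype at each day, and no difference here has a replicate check.

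In the mouse, the epiblast passes from a naive state before implantation, which cultured ESCs resemble, to a primed state after it, in which the cells can respond to signals for the germ layers. Naive cells carry transcription factors such as ZFP42, KLF4 and TBX3. On the way to the primed state these are shut down, the factors OTX2 and POU3F1 (also called OCT6) take part in moving enhancer use, the growth factor FGF5 comes on, and the methyltransferases DNMT3A and DNMT3B put methyl groups on much of the genome. Fgf5 is a widely used marker of the primed state, and Pou5f1, the gene of OCT4, stays on in both states.

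Of 550 cells, 486 had at least 50000 reads, at least 2000 genes with a read and at most 50% of reads from mitochondrial genes. They were 79 WT, 83 3AKO and 80 3BKO cells at day 3, and 89, 88 and 67 at day 9. The share of cells kept was lowest in 3BKO at day 9, at 67 of 93, against 97.8% of WT and 94.6% of 3AKO cells at that day. With no filter on cells, the same 6 genes were called lower in 3BKO at day 9 as with it. The median cell had 263902 reads, and batch 2 of 3BKO at day 9 was the deepest library, with a median of 692321. The median mitochondrial share was 3.58 to 6.31% in the libraries of batch 1 and 9.09 to 13.5% in those of batch 2. At day 9 the targeted genes went with the labels: Dnmt3a had 26.1 and 23.9 CPM (reads of a gene per 1000000 reads of the library) in the batches of 3AKO against 177 and 144 in WT, and Dnmt3b had 15.9 and 16.8 CPM in 3BKO against 155 and 189. At day 3 they went against the labels in batch 2, where Dnmt3a had 335 CPM in the library labelled 3AKO and 12.8 CPM in the one labelled 3BKO. In batch 1 of day 3, Dnmt3a had 25.8 CPM under the label 3AKO and 587 CPM under 3BKO, and Dnmt3b had 261 CPM and 167 CPM, against 600.1 CPM in WT. Mutant values at day 3 are therefore given for each library under its label. The epiblast genes Pou5f1, Sox2, Sall4, Utf1 and Tdgf1 had reads in every group at day 9, and none of them differed in either mutant by a log2 ratio of at least 1 in both batches, although Sall4 came close in 3BKO (0.98 and 1.31).

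The 8 genes lie on 8 chromosomes. In GENCODE annotation of GRCm38, Fgf5 (ENSMUSG00000029337.2) occupies chr5:98254184-98277030 on the plus strand and Trh (ENSMUSG00000005892.4) chr6:92242061-92244650 on the minus strand. Pim2 (ENSMUSG00000031155.16) lies at chrX:7878262-7883432 on the plus strand, Otx2 (ENSMUSG00000021848.16) at chr14:48657677-48673819 on the minus strand, and Pou3f1 (ENSMUSG00000090125.3), a gene of 1 exon, at chr4:124656807-124660655 on the plus strand. Vrtn (ENSMUSG00000071235.12) is at chr12:84641019-84651455 on the plus strand, Car14 (ENSMUSG00000038526.14) at chr3:95897768-95904691 on the minus strand, and Bag2 (ENSMUSG00000042215.8) at chr1:33745484-33757795 on the minus strand. All 8 code for proteins. The exons of Car14 share 445 bases with those of Aph1a on the opposite strand, and the sources used here do not say if reads were counted by strand, so the counts of Car14 are uncertain to that extent. Aph1a itself had 4.08 CPM in WT, 4.82 CPM in 3AKO and 4.36 CPM in 3BKO at day 9. Otx2, Pou3f1 and Bag2 share 168, 330 and 131 exon bases at most with other annotated transcripts, which had at most 1.78 CPM in a day 9 group.

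The promoters are shown because the study removed enzymes that methylate CG dinucleotides, and because 6 of these genes were low together in 3BKO at day 9. RefSeq entries for GRCm38.p6 were found for 7 of the 8 genes. Each line gives the 250 bases before the start, 5′ to 3′ on the strand of the gene, and for genes with several starts the one farthest upstream. Capitals mark CG dinucleotides, the octamer ATGCAAAT bound by POU factors and the core TAATCC bound by OTX factors, the last 2 on either strand.
Fgf5: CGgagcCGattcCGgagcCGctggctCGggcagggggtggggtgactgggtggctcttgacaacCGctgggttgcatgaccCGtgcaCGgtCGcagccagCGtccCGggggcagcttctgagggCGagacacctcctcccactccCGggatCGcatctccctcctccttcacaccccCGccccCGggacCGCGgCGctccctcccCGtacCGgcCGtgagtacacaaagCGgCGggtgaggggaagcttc
Trh: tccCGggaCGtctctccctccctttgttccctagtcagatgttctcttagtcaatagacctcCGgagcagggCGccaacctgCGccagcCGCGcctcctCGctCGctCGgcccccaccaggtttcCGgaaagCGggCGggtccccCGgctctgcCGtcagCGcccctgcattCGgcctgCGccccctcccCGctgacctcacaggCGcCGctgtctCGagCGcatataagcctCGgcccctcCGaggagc
Pim2: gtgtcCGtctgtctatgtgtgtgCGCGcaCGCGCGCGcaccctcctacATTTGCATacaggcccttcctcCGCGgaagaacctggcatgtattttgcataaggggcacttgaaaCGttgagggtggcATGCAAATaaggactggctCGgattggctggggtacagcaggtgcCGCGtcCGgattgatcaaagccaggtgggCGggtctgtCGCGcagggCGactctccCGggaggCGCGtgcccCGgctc
Otx2: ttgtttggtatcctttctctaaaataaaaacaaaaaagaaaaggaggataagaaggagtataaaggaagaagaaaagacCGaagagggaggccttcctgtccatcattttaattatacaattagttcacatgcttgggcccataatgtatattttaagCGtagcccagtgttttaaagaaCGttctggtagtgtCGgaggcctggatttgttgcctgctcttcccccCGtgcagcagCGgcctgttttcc
Vrtn: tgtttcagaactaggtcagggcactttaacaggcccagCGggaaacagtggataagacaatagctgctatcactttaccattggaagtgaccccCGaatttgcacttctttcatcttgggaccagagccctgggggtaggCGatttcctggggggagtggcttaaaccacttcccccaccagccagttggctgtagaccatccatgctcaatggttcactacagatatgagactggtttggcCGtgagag
Car14: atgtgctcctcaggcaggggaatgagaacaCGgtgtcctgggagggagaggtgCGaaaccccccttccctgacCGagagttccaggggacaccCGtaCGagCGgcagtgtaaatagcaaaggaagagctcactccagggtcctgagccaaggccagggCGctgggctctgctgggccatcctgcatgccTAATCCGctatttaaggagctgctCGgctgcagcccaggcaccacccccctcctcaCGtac
Bag2: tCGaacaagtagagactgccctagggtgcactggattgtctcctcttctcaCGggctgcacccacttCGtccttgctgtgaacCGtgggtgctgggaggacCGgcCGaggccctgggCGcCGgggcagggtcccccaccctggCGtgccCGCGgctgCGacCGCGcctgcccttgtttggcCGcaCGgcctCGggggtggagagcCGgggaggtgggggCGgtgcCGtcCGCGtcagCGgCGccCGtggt

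The stretches are chr5:98253934-98254183 (plus strand) for Fgf5, chr6:92244651-92244900 (minus) for Trh, chrX:7878056-7878305 (plus) for Pim2 and chr14:48667645-48667894 (minus) for Otx2. Those of Vrtn, Car14 and Bag2 are chr12:84640769-84641018 (plus), chr3:95904686-95904935 (minus) and chr1:33757751-33758000 (minus). The promoters of Trh and Bag2 held 25 CG dinucleotides each, that of Fgf5 24 and that of Pim2 22, against a median of 6 (quartiles 2 and 16) over all 32851 promoters in the table. These 4 thus lay above the upper quartile. Car14 held 10, Otx2 6 and Vrtn 4, and the other starts of Otx2 and Vrtn held 8 to 14. The octamer occurred at 2 places in the Pim2 promoter, once on either strand, starting 202 and 123 bases before the start, and in 1.601% of all promoters. No other member's stretch held it. The OTX core occurred in that of Car14, 61 bases before the start, and at 1 of the 3 further starts of Otx2, against 6.25% of all promoters. Among the 6 genes that were low in 3BKO, the stretches shown thus held from 4 CG dinucleotides, in Vrtn, to 25. That of Vrtn alone lay below the median of 6, and its further starts, with 10 and 8, lay above it. Methylation of these stretches was not tested.

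The first question was how each gene stood in the mutants at day 9. Reads were summed over the cells of a group and given as CPM, and ratios are differences of log2(CPM + 1), which understates changes at low values. A gene was called lower or higher when its log2 ratio was at least 1 in size in each batch taken alone, with the same sign, among genes that were detected, meaning that 20% or more of the cells in 1 of the groups compared had a read, in both batches alike. Of the 8 genes, 7 passed this detection limit and 6 were called lower in 3BKO than in WT: Car14, Bag2, Vrtn, Pim2, Fgf5 and Trh. Over all 9235 genes that passed, 4.98% were lower and 2.86% higher, but the count of members repeats the contrast by which they were chosen and nothing is read from it. None of the 8 was higher. The median log2 ratio of the 7 was -4.69, also with Vrtn, which had no read in 3BKO, at its bound, against -0.08 over all detected genes. In 3AKO none of the 7 detected genes was lower and none higher, where 1.59% and 1.07% of all genes were, and their median log2 ratio was -0.15.

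**Figure D1:**
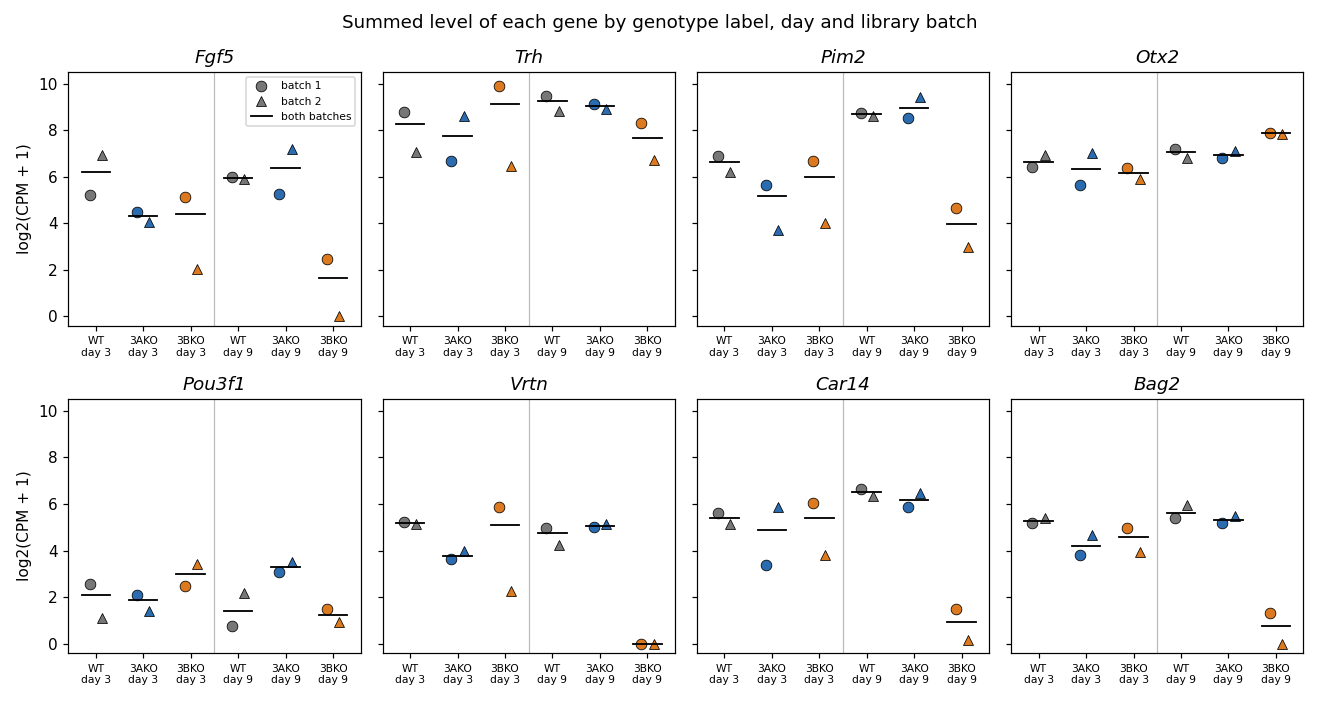
Level of each gene as log2(CPM + 1) (vertical axis) in the 6 groups of genotype label and day (horizontal axis); circles are batch 1, triangles batch 2 and horizontal lines both batches summed, with WT in grey, 3AKO in blue and 3BKO in orange. At day 9, Fgf5, Trh, Pim2, Vrtn, Car14 and Bag2 lay lower in both 3BKO libraries than in any WT or 3AKO library, while Otx2 lay higher.

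Fgf5 encodes a secreted fibroblast growth factor. At day 9 its level was 62.7 CPM in batch 1 and 57.9 CPM in batch 2 of WT, 36.8 and 146 CPM in 3AKO, and 4.56 and 0 CPM in 3BKO. Both 3BKO libraries were thus below all 4 others, while the batches of 3AKO lay on either side of WT. Summed over batches, 3BKO had 2.11 CPM (exact Poisson interval 1.63 to 2.698) and WT 61.1 CPM (58.5 to 63.7), a 28.9-fold lower level and a log2 ratio of -4.32 (-3.52 and -5.88 in the batches). Fgf5 was a gene of few cells even in WT: the lowest and the median cell had 0 CPM and the highest 703 CPM. After every cell was thinned to 50000 reads, the share of cells with a read was 23.6% for WT (exact binomial interval 15.2 to 33.8%). It was 25.0% for 3AKO (16.4 to 35.4%) and 4.48% for 3BKO (0.933 to 12.5%). Without thinning these shares were 25.8%, 25.0% and 4.48%. A single cell gave 70.8% of the Fgf5 reads in batch 2 of WT, and a single cell gave 89.1% of those in 3BKO. Leaving out the top cell of each group and batch, the log2 ratio of 3BKO was -5.07.

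Trh encodes the precursor of thyrotropin-releasing hormone, a short peptide best known from the hypothalamus. It was the highest of the 8 per length, with 441 CPM per kilobase of exon in WT at day 9. Its levels were 696 and 446 CPM in the batches of WT, 548 and 476 CPM in 3AKO and 314 and 103 CPM in 3BKO. Trh was thus lower in 3BKO in both batches, but it was not lost. Its log2 ratio to WT was -1.60 (-1.15 and -2.11), the least of the 6 that were called lower. Single cells ranged from 0 CPM to 3120 CPM in WT with a median of 285, and from 0 CPM to 4259 CPM in 3BKO with a median of 31.8. The ranges of single cells thus overlapped throughout, while the median cell was lower in 3BKO. Trh reads were found after thinning in 76.4% of cells for WT (66.2 to 84.8%), 70.5% for 3AKO (59.8 to 79.7%) and 53.7% for 3BKO (41.1 to 66%).

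Pim2 encodes a serine/threonine kinase of the PIM family, which promotes survival and growth. It had 420 and 387 CPM in the batches of WT at day 9, 365 and 688 CPM in 3AKO, and 23.9 and 6.95 CPM in 3BKO. The summed level of 14.8 CPM in 3BKO (13.5 to 16.3) was 27.6-fold below the 409 CPM of WT (402 to 415), with a log2 ratio of -4.69 (-4.08 and -5.61). Unlike Fgf5, it still had reads in many 3BKO cells, each with little of it. Of 3BKO cells, 40.3% held a Pim2 read (26.9% after thinning, 16.8 to 39.1%), and of WT cells 43.8% (41.6%, 31.2 to 52.5%). Among cells with a read, the median was 382 CPM in WT, 168 CPM in 3AKO and 23.9 CPM in 3BKO, and the highest cells had 3648, 4952 and 340 CPM. Pim2 is the only one of the 8 on the X chromosome. The Y-linked genes Eif2s3y, Ddx3y, Kdm5d and Uty summed to 207 CPM in WT and 119 CPM in 3AKO at day 9 and to 0 CPM in 3BKO; the part of this difference between the lines in the result was not tested.

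Vrtn encodes vertnin, a DNA-binding protein named for its tie to vertebral number in pigs. Its level was 30.3 and 17.8 CPM in the batches of WT at day 9 and 31.1 and 34.1 CPM in 3AKO. Not a single read fell on it among 30287278 reads of 67 cells of 3BKO. Against the limit of 3 counts over the group, Vrtn was at least 262-fold lower than in WT, and the log2 ratio of -4.75 depends on the 1 CPM added. After thinning, Vrtn reads occurred in 23.6% of cells for WT (15.2 to 33.8%), in 20.5% for 3AKO (12.6 to 30.4%), and in 0 of 67 cells for 3BKO, which allows a share of up to 4.48% by the limit of 3 counts (upper bound of the exact binomial interval 5.36%).

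Car14 encodes a carbonic anhydrase that sits in the cell membrane. It had 98.2 and 79 CPM in the batches of WT at day 9, 58 and 88.4 CPM in 3AKO, and 1.85 and 0.123 CPM in 3BKO. The log2 ratio between 3BKO and WT was -5.59 (-5.12 and -6.15), the largest fall among the members in this measure, and the linear level was 99.1-fold lower. The median WT cell had 29 CPM and the highest 899 CPM, whereas 3 of 67 cells of 3BKO held a read and the highest of them had 53.8 CPM. After thinning, the share of cells with a read was 52.8% for WT (41.9 to 63.5%), 46.6% for 3AKO (35.9 to 57.5%) and 2.99% for 3BKO (0.364 to 10.4%).

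Bag2 encodes a co-chaperone that regulates HSP70. Levels were 40.6 and 61.2 CPM in the batches of WT at day 9, 35.5 and 43.5 CPM in 3AKO, and 1.496 and 0 CPM in 3BKO. The 21 reads in 3BKO all came from 1 cell. WT had reads in 34.8% of cells after thinning (25.0 to 45.7%), 3AKO in 29.5% (20.3 to 40.2%) and 3BKO in 1.49% (0.0378 to 8.04%). The log2 ratio of 3BKO was -4.85 (-4.06 and -5.96).

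Otx2 and Pou3f1, the transcription factors usually counted among the drivers of the primed state, did not follow the other 6. Otx2 had 145 and 111 CPM in the batches of WT at day 9, 110 and 134 CPM in 3AKO and 236 and 226 CPM in 3BKO. Both 3BKO libraries were above the other 4. Against WT, the log2 ratio was 0.79, made of 0.70 (batch 1) and 1.03 (batch 2), so that Otx2 missed the call through batch 1. The median cell had 91.7 CPM in WT, 63.3 CPM in 3AKO and 174 CPM in 3BKO, with highest cells of 593, 822 and 1403 CPM. After thinning, Otx2 reads were found in 70.8% of cells for WT (60.2 to 79.9%), 62.5% for 3AKO (51.5 to 72.6%) and 76.1% for 3BKO (64.1 to 85.7%), with intervals that overlapped. Otx2 reads were thus present in most cells of all 3 genotypes at day 9.

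Pou3f1 was near the limit of detection. It had 0.700 and 3.51 CPM in the batches of WT at day 9, 7.52 and 10.501 CPM in 3AKO and 1.78 and 0.923 CPM in 3BKO. Per length it was the lowest of the 8 in WT, at 0.433 CPM per kilobase of exon. The 3AKO libraries were above both WT libraries, with a log2 ratio of 1.87 (2.33 and 1.35), but the gene failed the detection limit in every comparison. That limit was set on unthinned reads in each batch. By it, 13.1% and 29.6% of cells in the batches of 3AKO had a read, against 5% and 17.2% in WT, so that batch 1 missed it. After thinning, the share over both batches was 4.49% for WT (1.24 to 11.1%), 12.5% for 3AKO (6.41 to 21.3%) and 5.97% for 3BKO (1.65 to 14.6%). The highest cells had 45.2, 133 and 66.7 CPM.

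**Figure D2:**
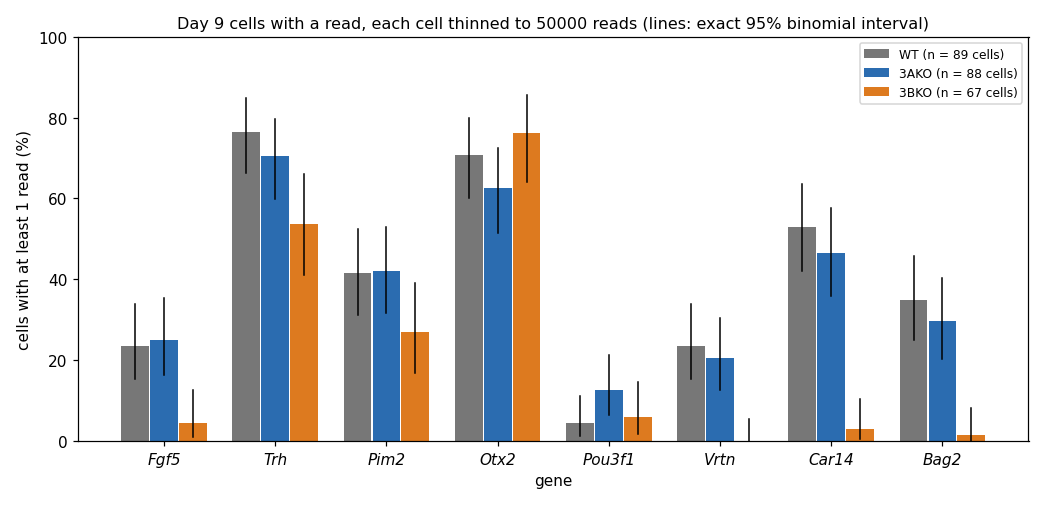
Share of day 9 cells with at least 1 read of each gene (vertical axis, %), for WT (grey), 3AKO (blue) and 3BKO (orange), after thinning each cell to 50000 reads; lines are exact 95% binomial intervals, which cover counting error only. Fgf5, Vrtn, Car14 and Bag2 were in at most 4.48% of 3BKO cells, Trh and Pim2 were in 53.7% and 26.9%, and Otx2 was in 76.1%.

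In 3AKO the other detected genes stayed within a log2 ratio of 0.42 of WT over both batches. Fgf5 had a log2 ratio of 0.42 with batches of opposite sign (-0.75 and 1.32), Vrtn 0.31 (0.04 and 0.90) and Pim2 0.29 (-0.20 and 0.83). Car14 (-0.37), Bag2 (-0.29), Trh (-0.24) and Otx2 (-0.15) were somewhat below WT, Bag2 alone among them with the same sign in both batches. Of the 8, Bag2, Vrtn and Pou3f1 thus kept 1 sign across the batches of 3AKO. A highest Trh cell of 10314 CPM gave 14.4% of all Trh reads in 3AKO.

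Between day 3 and day 9 of WT, Pim2 and Car14 were called higher, 2 of the 7 genes detected, where 5.25% of 10162 detected genes were higher and 2.19% lower. Pim2 had 118 and 72.3 CPM in the batches at day 3, and its log2 ratio of day 9 to day 3 was 2.05 (1.83 and 2.40). Car14 had 47.2 and 34.3 CPM at day 3, and its log2 ratio was 1.12 (1.04 and 1.18). Of these, Pim2 held under every alternative setting, while Car14 lay close to the limit and lost the call under 7 of 15. Trh had a log2 ratio of 0.99 (0.67 and 1.73). For Fgf5 the batches disagreed: it had 36.2 CPM in batch 1 and 121 CPM in batch 2 at day 3, where a single cell gave 61.1% of the reads of batch 2. Its log2 ratio was -0.25, made of 0.78 and -1.05. Vrtn (-0.44), Bag2 (0.32) and Otx2 (0.43) moved by less than 1. WT cells at day 9 thus still held all 8 transcripts, at or above the day 3 level for 5 of the 8.

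At day 3 the members were on in libraries of both mutant labels. In batch 1, where Dnmt3a went with the labels, 3BKO had 33.7 CPM of Fgf5 against 36.2 in WT, 101 CPM of Pim2 against 118, and 30.4 CPM of Bag2 against 35.8. Vrtn stood at 57.2 CPM against 36.6, Car14 at 64.2 against 47.2, and Trh at 938 against 437. None of the 6 genes that were low in 3BKO at day 9 was thus as much as 1 lower on the log2 scale in this day 3 library. From this library to batch 1 of day 9, the log2 ratio was -5.86 for Vrtn, -4.51 for Car14, -3.66 for Bag2, -2.64 for Fgf5, -2.03 for Pim2 and -1.58 for Trh, and 1.53 for Otx2. The value for Vrtn, which had no read at day 9, depends on the 1 CPM added. Each of these is a difference between 1 library of 54 cells and 1 of 46.

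The batch 1 library labelled 3AKO gave the opposite course. At day 3 all 8 genes were below WT in it, with Trh at 102 CPM, Pim2 at 49.3, Fgf5 at 21.1, Bag2 at 12.9, Vrtn at 11.4 and Car14 at 9.35 CPM. By day 9 all 8 had higher values: the log2 ratio of day 9 to day 3 was 2.87 for Pim2, 2.51 for Car14, 2.41 for Trh, 1.40 for Bag2, 1.37 for Vrtn, 1.14 for Otx2, 1.00 for Pou3f1 and 0.77 for Fgf5. In WT the same ratios within batch 1 were 1.83, 1.04, 0.67, 0.18, -0.27, 0.79, -1.79 and 0.78. How many of all genes rose between the 3AKO libraries was not counted, so nothing is read from the count of 8.

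The 2 day 3 libraries of batch 2 with mutant labels went another way. By their labels, plate 210 carried batch 1 of 3BKO and batch 2 of 3AKO, and plate 211 batch 1 of 3AKO and batch 2 of 3BKO. Car14 had 64.2 and 57.9 CPM in the libraries of plate 210 and 9.35 and 13 CPM in those of plate 211. Trh had 938 and 394 CPM against 102 and 87.3, Bag2 30.4 and 24.2 CPM against 12.9 and 14.497, and Vrtn 57.2 and 14.9 CPM against 11.4 and 3.85. For these 4 genes both libraries of plate 210 were above both of plate 211, whatever the label said. Fgf5 (33.7 and 15.5 CPM against 21.1 and 3.14) and Otx2 (81 and 128 CPM against 49.3 and 57.9) were higher on plate 210 within each batch, and Pim2 (101 and 12 CPM against 49.3 and 15.004) was so in batch 1 alone. The Y-linked genes, absent from 3BKO at day 9, summed to 0.0830 and 0 CPM on plate 210 and to 125 and 333 CPM on plate 211. By the labels, genotype and plate are crossed in these 4 libraries, but in batch 2 Dnmt3a and the Y-linked genes went against the labels. Whether the batch 2 labels were exchanged was not tested. If they were, genotype and plate would go together and could not be told apart. The samples were left under their labels.

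Whether the genes were found in the same cells was examined next, on cells thinned to 50000 reads. WT cells at day 9 held a read of 0 to 8 of the genes, with a median of 3, and 38 of 89 cells held at least 4 (42.7%, exact binomial interval 32.3 to 53.6%). In 3AKO 32 of 88 cells did so (36.4%, 26.4 to 47.3%), and in 3BKO 3 of 67 (4.48%, 0.933 to 12.5%). No 3BKO cell held more than 4, and 1 held at least 5 when all reads were counted. Without thinning the shares were 47.2%, 44.3% and 5.97%. By batch they were 24 of 60 cells and 14 of 29 in WT, 31.1% and 48.1% in 3AKO and 6.52% and 0% in 3BKO, the last of these from 21 cells. Fgf5, Vrtn, Car14 and Bag2 were in few 3BKO cells at all. The low share in 3BKO at day 9 thus follows from the levels by which the genes were chosen. At day 3 the share was 45.6% in WT (34.3 to 57.2%), 55.6% in batch 1 of label 3BKO (41.4 to 69.1%) and 20.7% in batch 1 of label 3AKO (11.2 to 33.4%). In batch 2 it was 19.2% under the label 3BKO (6.55 to 39.4%) and 28% under the label 3AKO (12.1 to 49.4%), the reverse order.

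**Figure D3:**
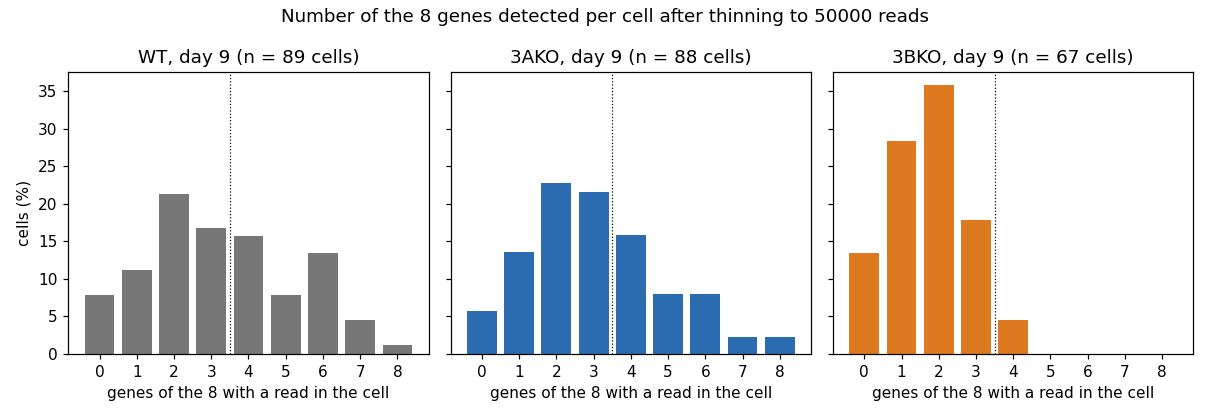
Percent of day 9 cells (vertical axis) by the number of the 8 genes with a read after thinning to 50000 reads (horizontal axis), in WT, 3AKO and 3BKO; the dotted line separates 3 from 4 genes. WT and 3AKO reached 8 genes in a cell, and 3BKO stopped at 4.

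The 4 genes Fgf5, Vrtn, Car14 and Bag2 were nearly without reads in 3BKO, and the cells with any of them were counted, a grouping made after their values were seen. Of WT cells at day 9, 66.3% held at least 1 of the 4 (55.5 to 76%), and so did 67% in 3AKO (56.2 to 76.7%), but in 3BKO the share was 5.97% (1.65 to 14.6%). With all reads counted, 5 cells of 3BKO had any. In 1 cell of batch 1, with 310659 reads, 57 reads of Fgf5, 21 of Bag2 and 9 of Car14 fell together. This cell had no read of Dnmt3b, Eif2s3y or Ddx3y, and its Zfp42 level of 328 CPM compared with 2269 CPM over the 3BKO cells. The other 4 cells held 1 gene of the 4 each, with 2 to 17 reads.

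Pairs of genes were compared by Spearman's rho over cells, as a description without a p. In WT at day 9 all 28 pairs had a rho above 0, with a median of 0.22, and all 28 were found together in more cells than the product of their shares gives; in batch 2 alone, with 29 cells, 23 pairs were above 0. The 7 pairs with Pou3f1 rest on 4 WT cells with a read of it. The 3 largest values were all of Pim2: its rho was 0.52 with Vrtn, 0.47 with Car14, 0.45 with Bag2, 0.40 with Trh and 0.33 with Fgf5 (n = 89 cells). Pim2 and Vrtn reads were found together in 16 cells where the product of the shares gives 8.73, and Pim2 and Bag2 reads in 21 cells where it gives 12.9. In the batches apart, Pim2 had a rho of 0.56 and 0.41 with Vrtn and of 0.40 and 0.48 with Car14. Otx2 was less tied to the rest, with a median rho of 0.19 over its 6 pairs without Pou3f1, against 0.34 over the 15 pairs among the other 6 genes. Correlations in sparse counts of this kind share the depth and the quality of the cell; over WT cells at day 9, no member's unthinned level had a rho larger than 0.19 in size with total reads or larger than 0.20 with the mitochondrial share, although within batch 2 Car14 had a rho of -0.46 with the latter.

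**Figure D4:**
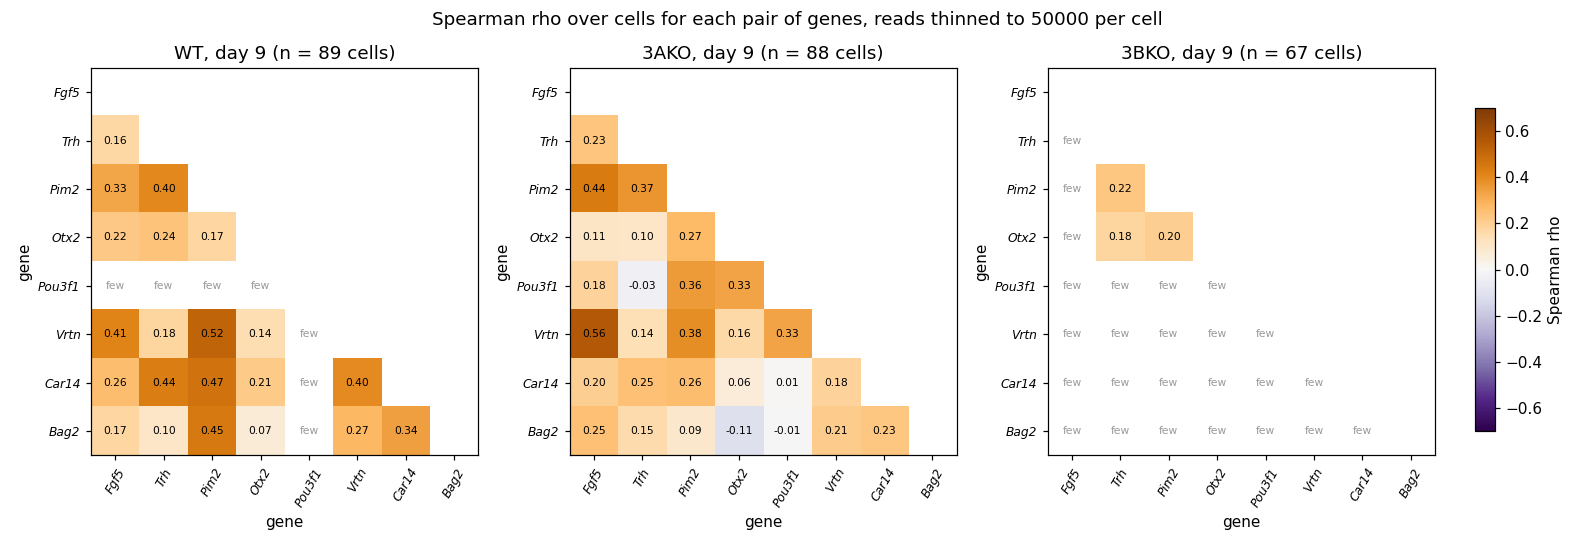
Spearman rho over day 9 cells for each pair of genes (rows and columns), with the value in each square and colour from purple (below 0) to orange (above 0); pairs in which a gene had reads in fewer than 5 cells are marked few. The largest values were 0.52 for Pim2 with Vrtn in WT and 0.56 for Fgf5 with Vrtn in 3AKO, and 3 pairs of 3BKO had enough cells.

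In 3AKO the strongest pair was Fgf5 with Vrtn, with a rho of 0.56 (0.58 in batch 1 and 0.52 in batch 2), found together in 12 cells where the product of the shares gives 4.50. Pim2 kept a rho of 0.44 with Fgf5, 0.38 with Vrtn and 0.37 with Trh. With Bag2 it had a rho of 0.09, against 0.45 in WT, a difference that was not tested. Over all 28 pairs the median was 0.20, and 25 were above 0. At day 3 the median over 28 pairs was 0.25 in WT, with Pim2 and Vrtn again at the top (0.52). In 3BKO at day 9, 10 of the 21 pairs that had a value were above 0, with a median of -0.01, but most involve a gene with reads in fewer than 5 cells. The 3 pairs among Trh, Pim2 and Otx2, which had more, had a rho of 0.18 to 0.22.

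Across cells the members ran against Zfp42, a marker of the naive state. In WT at day 9 all 8 had a rho below 0 with Zfp42 in both batches, with a median of -0.36. That of Pou3f1 rests on few cells with a read of it, 3 in batch 1 and 1 in batch 2. The lowest values were -0.58 for Bag2 and for Pim2, -0.50 for Car14 and -0.42 for Vrtn, and that of Otx2 was -0.11. For Pim2 the batches gave -0.45 and -0.80. In 3AKO the 8 had a median of -0.31 and Car14 the lowest value (-0.49). In 3BKO, where every cell held Zfp42 reads after thinning, Trh, Pim2 and Otx2 had a rho of 0.11, 0.14 and 0.18. The batches did not agree for Pim2 (0.21 and -0.13) and Otx2 (0.29 and -0.04), and Trh was near 0 in both (0.036 and 0.005). The other members had reads in fewer than 5 cells there, too few for a value. With Dnmt3b all 8 genes had a rho above 0 in WT at day 9, from 0.18 for Pou3f1 to 0.49 for Vrtn.

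The naive genes themselves were compared as a group. Of 14 naive genes, 13 were detected and 5 were higher in 3BKO than in WT at day 9: Tbx3 (log2 ratio 2.49), Klf5 (2.26), Klf4 (2.07), Zfp42 (1.24) and Prdm14 (1.22), all transcription regulators of the naive state. None was lower, and the median of the 13 was 0.99 against -0.08 over all genes. Over all 9235 detected genes, 2.86% were higher and 4.98% lower. The list was written with earlier results of these data known. Zfp42 had 963 CPM in WT, 461 CPM in 3AKO and 2269 CPM in 3BKO. In 3AKO none of 12 detected naive genes was called, with a median of -0.30. Over all 9201 genes detected in that comparison, 1.59% were lower and 1.07% higher, with a median of -0.10.

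Other genes of the primed and formative epiblast were mixed. Of 24 such genes, 14 were detected in 3BKO and WT at day 9, with a median log2 ratio of -0.19. Over all detected genes, 4.98% were lower and 2.86% higher. Of the 14, 2 were lower and 1 was higher, too few calls to compare with these shares. Those lower were Sall2, a zinc finger factor (43.2 CPM in WT and 0.693 CPM in 3BKO, log2 ratio -4.71), and Lef1, a nuclear partner of WNT signalling (24.1 and 7.99 CPM, -1.48). Nodal, the ligand that maintains the epiblast, was higher (107 and 302 CPM, 1.49). Sall2 was thus, like Car14 and Bag2, nearly without reads in 3BKO. The other 10 genes missed the detection limit, and among them Fgf8, Cdh2, Wnt3 and Cer1 had no read in 3BKO, against 19.04, 9.85, 3.22 and 1.44 CPM in WT. Of these, Fgf8 and Cer1 had no read in batch 2 of WT either. Fst, also below that limit, had 28.98 CPM in WT and 1.16 CPM in 3BKO. Grhl2 went the other way, with a log2 ratio of 1.54 (1.02 and 2.05), alone among the 10 in lying above 0 over both batches. These 5 and Grhl2 were named after their values were seen. In 3AKO 16 of the 24 were detected, none was called and the median was 0.28. Over all 9201 genes detected there, 1.59% were lower and 1.07% higher, with a median of -0.10, so that 0 calls among 16 is little to go by. From day 3 to day 9 of WT, Etv4, an ETS factor that responds to FGF signalling, was the 1 gene lower of 18 detected (log2 ratio -2.41). Of the naive list, Tcl1 (2.21) and Nanog (1.37) were higher, 2 of 12 detected. Over all genes detected in this comparison, 2.19% were lower and 5.25% higher.

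Markers of other lineages were set beside these counts. Of 12 meso-endoderm markers 1 was detected in 3BKO or WT at day 9 and none was called. Their summed level was 49.5 to 64.9 CPM in the WT libraries and 17.7 to 44.9 CPM in those of 3BKO. In batches 1 and 2 of 3BKO, 6 and 10 of the 12 had no read, against 3 and 5 in WT. The detected marker, Eomes, was higher in 3BKO, with a log2 ratio of 1.27 (0.01 and 2.33). Of 12 neural markers 5 were detected and Sox11 and Crabp2 were called lower in 3BKO. The rest of the 5 were not called: Nnat had a log2 ratio of -1.60, Tubb3 of 0.43 and Ncam1 of 0.68, the last 2 above WT in both batches. The 12 had a sum of 211 to 285 CPM in WT and 147 to 272 CPM in 3BKO. In each 3BKO library 5 of the 12 had no read, against 0 and 2 in the batches of WT. Over all detected genes, 4.98% were lower and 2.86% higher in 3BKO. Extraembryonic endoderm markers summed to 64.5 to 346 CPM in WT and 15.6 to 31.3 CPM in 3BKO, and 0 of 10 passed detection. Trophoblast markers summed to 36.3 to 80.1 CPM in WT and 93.3 to 143 CPM in 3BKO. Of these 8 markers 1 was detected, Tfap2c, which was higher in 3BKO. Below the detection limit, Krt7 (log2 ratio -2.79), Krt8 (-1.45) and Hand1 (-1.04) were lower, and Gata3 (3.13), Krt18 (0.46) and Elf5 (0.41) were higher. In each 3BKO library 3 of the 8 had no read, against 2 and 5 in the batches of WT. Fewer cells with a transcript and less of it per cell cannot be told apart in the sums, and the part of other cell types in the differences was not tested.

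Neighbouring genes were examined to see whether a whole stretch of a chromosome was low in 3BKO. For each member the nearest gene on either side with a read in at least 20% of WT day 9 cells was taken, 16 in all. They lay 1636 to 988465 bases from the member. Those of Fgf5 were 988465 and 198526 bases away and those of Otx2 248059 and 330271, too far to show how the stretch next to the gene stood. Of these, 1 had a log2 ratio at or below -1 in both batches, Npc2, 103107 bases from Vrtn (544 CPM in WT and 196 CPM in 3BKO, -1.47), and none was at or above 1 in both. Otud5, 1636 bases from Pim2, had 21.6 CPM in WT and 19.6 CPM in 3BKO. Rab23 and Zfp451, 2920 and 3750 bases from Bag2, had log2 ratios of 0.26 and -0.73, and Anp32e, 24555 bases from Car14, of -0.32. The median over the 16, near and far together, was -0.22. Over all 9235 detected genes, 4.98% were called lower and 2.86% higher, and 1 gene of 16 is too few to compare with these shares.

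Finally, each member was compared over the 12 libraries of genotype label, day and batch with 10748 named genes. Among the members, Car14 and Bag2 were most alike (Pearson's r of log2(CPM + 1) 0.97), followed by Vrtn with Bag2 (0.93) and Vrtn with Car14 (0.92). Fgf5 had an r of 0.83 to 0.89 with Pim2, Vrtn, Car14 and Bag2 and of 0.53 with Trh. Otx2 stood apart, with an r below 0 against 6 of the other 7. In the day 9 libraries of 3BKO, Car14, Bag2 and Vrtn had at most 1.85 CPM. The members were chosen chiefly by such day 9 differences between the genotypes. The r values among members are thus in part set by that choice, and nothing is read from them. Of other genes, Fzd2 was most like both Car14 (0.97) and Bag2 (0.95), Fndc4 most like Pim2 (0.95), Xrcc6 most like Vrtn (0.95), Ppp1r7 most like Fgf5 (0.93), Rab4a most like Trh (0.92), Cwc15 most like Otx2 (0.94) and Lrp8 most like Pou3f1 (0.89). The libraries share genotypes, days and plates, so these values are not 12 independent points, and with so many genes to choose from high values are to be looked at as a ranking alone.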

How the data were processed

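Single cells of EBs, 1 sorted per well, were sequenced by the authors after a modified Smart-seq2 protocol without molecular identifiers. Per the labels and the study's methods, reads were trimmed (Trim Galore 0.5.0), aligned to mm10 with STAR 2.7.1a and counted over exons by gene name with featureCounts 1.6.1, multiply mapped reads excluded, with FastQC 0.11.2 for quality. Whether strand was used is not given in the sources used here. The authors deposited raw read counts in 1 table of the whole series. Its 26 columns of 8 empty wells and 18 wells of pooled cells match no sample and were not used.

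Groups, days and library batches were taken from the labels. Cells with at least 50000 reads, at least 2000 genes and at most 50% mitochondrial reads were kept, and no doublet caller was run. Reads were summed over cells and scaled to CPM over the summed total, and log2 ratios used a pseudocount of 1 CPM. Each combination of genotype and day is 1 sample, since the labels name no culture, animal or clone, so no test across cells was made. Exact Poisson intervals (CPM) and exact Clopper-Pearson binomial intervals (shares), at 95%, take in counting error alone, and PCR copies of 1 molecule can be counted more than once. The limit for 0 reads was 3 counts over the group. Shares and pairs of genes used cells thinned at random to 50000 reads. Total reads per group were 19713905 to 34821361. The call rule was tested on simulated data.

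The members and lists were chosen with earlier results of these data known. Besides the members, genes are named by rule: Dnmt3a and Dnmt3b, the genes most like each member over 12 libraries, the nearest detected gene on each side, and list genes past the call rule, up to 4 per direction by size. Prdm14, the epiblast markers, Aph1a, the Y-linked genes and list genes that were not called were named outside this rule, after their values were seen. Neighbours and exon overlaps came from a GENCODE annotation of GRCm38, and promoters from RefSeq for GRCm38.p6. Alternatives varied the cell filter, batch, summing, denominator, normalization (edgeR 4.0.16 TMM and DESeq2 1.42.0 size factors, in R 4.3.3), pseudocount and detection limit. Other steps used Python 3.11.15, numpy 2.4.6, pandas 2.3.3, scipy 1.17.1 and matplotlib 3.10.9.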

Additional observations from a re-analysis of the deposited data

Results flagged for a closer look

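Between day 3 and day 9 of batch 1, 7 of the 8 genes went up in the libraries labelled 3AKO and down in those labelled 3BKO. Only the sign was asked for, and the share of all genes with such opposite signs was not counted. The day 9 levels of 3BKO are also those by which the genes were chosen, so nothing is read from this count. The log2 change of 3AKO minus that of 3BKO was 7.03 for Car14, 5.05 for Bag2, 4.895 for Pim2, 3.99 for Trh, 3.41 for Fgf5 and 2.02 for Pou3f1, the last of which lay below the detection limit. For Vrtn it was 7.24, a value set by the 1 CPM added, since Vrtn had no read in 3BKO at day 9. Otx2 went up in both. At day 9, Vrtn was above WT in both batches of 3AKO (log2 ratio 0.31) and below it in both batches of 3BKO (-4.75), a difference of 5.06 that depends on the added CPM in the same way: the 3BKO ratio was -8.03 with 0.1 CPM added and -1.85 with 10 CPM. None of these differences was tested, since each group is 1 sample.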

How the results depend on the processing

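Each log2 ratio was recomputed under 15 alternative settings. The 6 genes lower in 3BKO kept a ratio below 0 under all 15, and no called ratio changed sign. In part this was fixed in advance. The detection limit does not enter a ratio, and a called gene already had the sign and size asked for in each batch. Neither a batch alone nor a looser detection limit could thus remove a call. Trh, Pim2 and Car14 kept the call under all 15, and Fgf5, Vrtn and Bag2 lost it when detection in 40% of cells was asked for, which left 3 genes lower. In batch 2 alone, 1 gene (Otx2) was higher in 3BKO and 2 (Fgf5 and Pou3f1) were higher in 3AKO. From day 3 to day 9 of WT in that batch, Trh was called higher as well (log2 ratio 1.73), and 1 gene (Fgf5) was lower. With detection in 10% of cells, or with no detection limit, 1 gene (Pou3f1) was higher in 3AKO. In WT from day 3 to day 9, 1 gene (Pim2) in place of 2 was higher with the strict cell filter, the mean of single-cell CPM, thinned reads, a total without mitochondrial genes and Gm42418, TMM factors, DESeq2 size factors or a pseudocount of 10 CPM.

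The share of day 9 cells with at least 4 genes fell when 5 reads of a gene were asked for, to 22.5% for WT, 17% for 3AKO and 0% for 3BKO. With at least 3 genes it was 59.6%, 58% and 22.4%, and with at least 5 genes 27%, 20.5% and 0%. In batch 2 alone it was 48.1% in 3AKO and 0% in 3BKO, and 3BKO stayed below WT and 3AKO under each of these settings. The low share in 3BKO follows from the day 9 levels by which the genes were chosen, so this repeats that contrast. No paired analysis was possible because the results come from no test and each group is 1 sample. Depth limits Pou3f1 most, whose day 9 reads numbered 58 (WT), 209 (3AKO) and 40 (3BKO).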
